A study of Mus musculus with 23 samples.

Results

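The genes described here are 10 genes of cytotoxic lymphocytes, the T cells and natural killer cells that kill other cells: the granzymes Gzma, Gzmb and Gzmk, the pore protein gene Prf1, the granule protein gene Nkg7, the death ligand gene Fasl, and the receptor genes Klrk1, Ncr1, Klrd1 and Klrg1. They were chosen by name, as the probe sets annotated with 1 of these symbols and no other, with earlier results of these data known. All 10 genes were on the array, in 12 of the 45037 probe sets tested, and they are 10 of 18193 genes with a probe set of a single symbol. Fasl and Prf1 each had 2 probe sets and the other 8 genes had 1, so each gene is read by its brightest probe set. The second one is given beside it for the CF effect in each strain, the strain difference of that effect and the difference between the strains' CF lungs. RNA of the whole right lung was measured on 23 arrays from C57BL/6 mice (B6 below) and BALB/c mice (BALB below) of both sexes. Mice labelled CF carried the CF-/- genotype and control mice the CF+/+ genotype. Strain, sex and genotype make 8 groups, all of 3 arrays but for the CF males of B6, with 2. The sources used here do not give age, housing, diet or the targeted allele. Nothing in the labels ties an array to an animal, and the p-values therefore reflect the spread between samples, which may be only technical.

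Cytotoxic lymphocytes store perforin and granzymes in lytic granules. On contact with a target cell the granules are released, perforin opens the target's membrane, and granzymes enter and cut proteins inside it, while Fas ligand on the killer's surface triggers death through the receptor Fas. Whether the killer fires is set by activating and inhibitory receptors, several of which sit in the natural killer gene complex and differ between inbred strains. In lung these cells circulate, reside in the tissue and increase during viral and bacterial infection.

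Promoter sequences of the members are shown because several of the genes moved together, as described below. The RefSeq promoter table for GRCm38.p6 held 8 of the 10 genes, and Klrg1 and Klrd1 were not among them. In the 250 bases before the first transcription start listed for each gene, 4 motifs were searched on both strands: the T-box motif TCACACC, the RUNX motif TGTGGT, the AP-1 motif TGANTCA and the GAS motif TTCNNNGAA, which STAT proteins bind. Of the promoters of 27025 genes, 1 per gene and of that length, 3.31% held the T-box letters, 14.2% the RUNX letters, 6.87% the AP-1 letters and 7.18% the GAS letters. Among the 8 members, the RUNX letters were in 6, the T-box letters in 2 (Gzmk and Nkg7), the AP-1 letters in 1 (Gzmb) and the GAS letters in 1 (Nkg7). The 4 promoters below are those of the 3 genes whose CF effect differed between the strains and that have an entry (Gzmb at chr14:56262335-56262584 on the minus strand, Gzmk at chr13:113180966-113181215 on the minus strand, Nkg7 at chr7:43436888-43437137 on the plus strand), and that of Ncr1 (chr7:4337465-4337714, plus strand). Ncr1 was higher in CF lungs of BALB and did not pass in B6, and its strain difference missed the threshold. Each runs 5′ to 3′ and ends at the base before the start, and capitals mark the matches, on either strand. They are descriptions of these letters and not of bound sites.
Gzmb: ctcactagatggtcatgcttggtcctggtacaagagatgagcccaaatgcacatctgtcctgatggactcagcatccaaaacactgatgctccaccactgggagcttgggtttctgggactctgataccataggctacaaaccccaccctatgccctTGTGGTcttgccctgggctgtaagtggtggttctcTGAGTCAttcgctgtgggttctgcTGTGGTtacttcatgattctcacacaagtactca
Gzmk: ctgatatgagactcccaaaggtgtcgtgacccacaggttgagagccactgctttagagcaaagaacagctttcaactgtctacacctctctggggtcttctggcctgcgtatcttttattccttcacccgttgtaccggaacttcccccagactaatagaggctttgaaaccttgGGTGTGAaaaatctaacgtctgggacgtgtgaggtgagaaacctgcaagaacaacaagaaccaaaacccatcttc
Nkg7: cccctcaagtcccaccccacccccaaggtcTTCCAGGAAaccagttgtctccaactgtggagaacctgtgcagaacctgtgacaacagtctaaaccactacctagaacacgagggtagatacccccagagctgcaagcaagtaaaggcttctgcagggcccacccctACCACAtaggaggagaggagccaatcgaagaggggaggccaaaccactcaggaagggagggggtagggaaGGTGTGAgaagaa
Ncr1: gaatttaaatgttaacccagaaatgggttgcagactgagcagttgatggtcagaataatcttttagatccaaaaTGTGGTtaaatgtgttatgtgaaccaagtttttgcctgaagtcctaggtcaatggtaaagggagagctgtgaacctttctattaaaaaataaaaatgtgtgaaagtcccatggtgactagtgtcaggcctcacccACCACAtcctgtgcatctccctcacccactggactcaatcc

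The RUNX letters stood 88 and 29 bases before the start in Gzmb, 78 bases before it in Nkg7 and 171 and 36 bases before it in Ncr1, counted to the match's base nearest the start. The T-box letters stood 69 bases before the start in Gzmk and 7 bases before it in Nkg7. The AP-1 match of Gzmb lay 52 bases before its start and the GAS match of Nkg7 212 bases before its start. In the other 4 promoters, Gzma, Prf1 and Klrk1 had 1 RUNX match each and Fasl had no match to any of the 4 motifs.

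Values are log2 signals, a scale inferred from the deposited values, and 1 unit is a doubling. They allow a gene to be compared between arrays but not with another gene, since probe sets differ in brightness. Comparisons between the strains assume that a probe set reads the RNA of both alike, which was not tested. Array medians lay between 4.56 and 4.64 and any pair of arrays correlated at 0.971 to 0.996 across probe sets. Cftr, the gene targeted in CF mice, was lower in CF than in control lungs of BALB (3.99 against 5.66, difference -1.67, adjusted p = 6.44e-07) and differed by -0.22 in B6 (adjusted p = 0.43). This probe set of Cftr thus went with the genotype labels of BALB, while those of B6 were not checked by it. A second, dimmer probe set differed by -0.18 in BALB (adjusted p = 0.0725) and by 0.05 in B6 (adjusted p = 0.742). Between controls, the brighter one was higher in BALB than in B6 by 1.38. Gut markers were also lower in BALB CF than in BALB control lungs, as given below. Their part in the Cftr difference was not tested. Surfactant, airway and endothelial markers of lung (8 of 8 measured, none past the threshold by limma, with 0 in B6 and 1 in BALB at an unadjusted p under 0.05) averaged 11.93 to 12.11 on every array. The third BALB control male stood apart. Rag1, a recombinase gene of developing T cells, read 6.85 there and 2.83 to 3.93 on all other arrays, and Dntt, expressed in the same cells, read 5.30 there and 3.52 to 4.22 elsewhere. The mean of the 5 thymocyte markers was 5.38 on that array and at most 4.38 on the others. Where leaving it out changed the call or the sign of a value named here, both values are given, as they are for most values that it moved by over 1.5 times.

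In B6 lungs, 7 of the 10 cytotoxic genes were higher in CF than in control mice (adjusted p under 0.05 in limma over all 45037 probe sets), where 2.72% of all probe sets were higher. These were Nkg7, Klrg1, Gzma, Gzmb, Gzmk, Klrd1 and Klrk1. The median difference over the 10 genes was 0.97, against 0 over all probe sets. No member was lower, where 1.99% of all probe sets were. Prf1, Fasl and Ncr1 did not pass. Because the genes were chosen with earlier results of these data known, counts of members beside a share of all probe sets are descriptions and not tests.

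Nkg7 encodes a membrane protein of lytic granules. In B6 it read 6.69, 6.79 and 7.43 in CF females and 7.98 and 7.51 in CF males, against 5.41, 6.11 and 6.15 in control females and 5.10, 5.13 and 5.04 in control males. Every CF array was above every control array, and the control males formed a tight low group. The difference was 1.86 (SE 0.20, n = 5 and 6, adjusted p = 1.92e-05), or 3.64-fold.

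Gzma is the tryptase-like granzyme of killer cells. In B6 it read 8.36, 8.0 and 9.12 in CF females and 9.56 and 9.11 in CF males, against 7.32, 8.02 and 8.06 in control females and 7.02, 7.19 and 6.91 in control males. The groups overlapped, since 1 CF female lay just below the 2 higher control females. The difference was 1.49 (SE 0.25, adjusted p = 0.00132).

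Gzmb, the aspartate-cutting granzyme that activates caspases, read 6.37, 6.30 and 7.2 in B6 CF females and 7.45 and 7.13 in CF males. In B6 controls it read 5.58, 6.06 and 6.08 in females and 5.65, 5.33 and 5.25 in males. The groups did not overlap, and the narrowest gap was between a CF female and a control female. Gzmb rose by 1.30 (SE 0.20, adjusted p = 0.000486).

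Gzmk is a granzyme typical of a subset of memory CD8 T cells. It read 4.56, 4.51 and 5.54 in B6 CF females and 4.99 and 5.0 in CF males, against 3.82, 3.93 and 3.80 in control females and 3.75, 3.75 and 3.76 in control males. All control arrays sat in a narrow band, below the median of all probe set means (4.59). All 5 CF arrays were higher than any control array, though the CF females at 4.56 and 4.51 lay below that median too. The difference was 1.13 (SE 0.13, adjusted p = 2.85e-05).

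**Figure D1:**
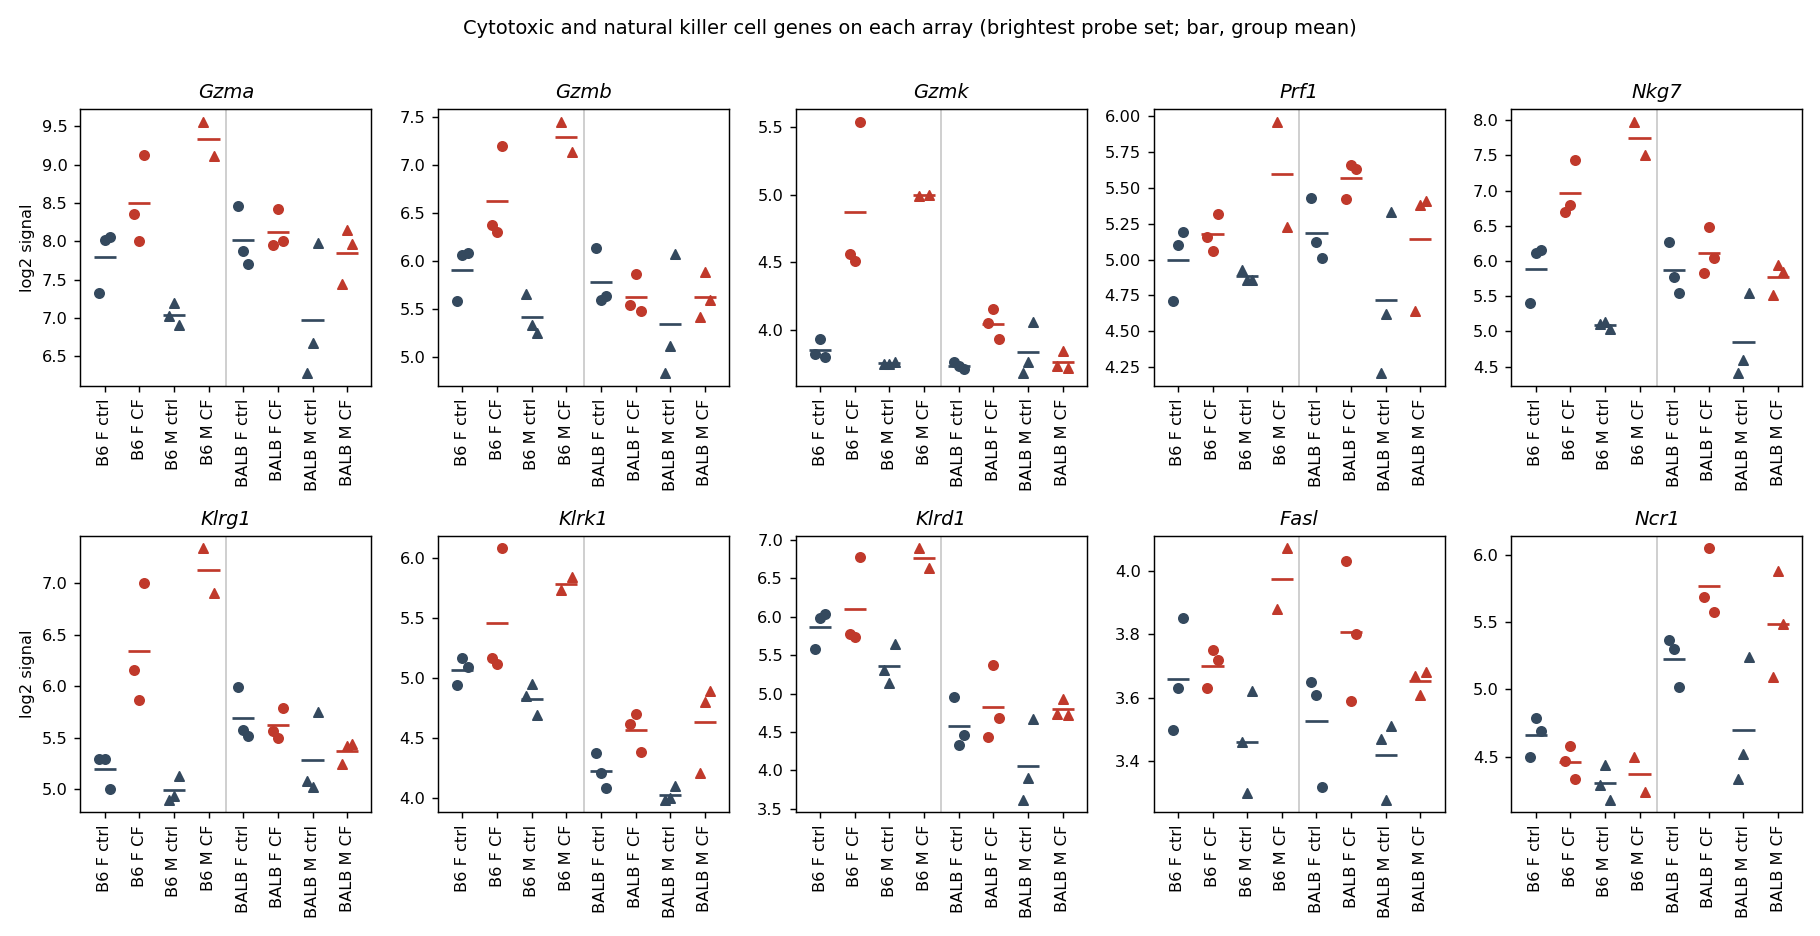
Log2 signal (vertical axes, a separate scale in each panel) of the 10 cytotoxic and natural killer genes on each of the 23 arrays, grouped along the horizontal axis by strain, sex (F, M) and genotype (ctrl, CF), with a bar at each group mean. For Gzmb, Gzmk, Nkg7 and Klrg1 every B6 CF array lies above every B6 control array, while for Ncr1 the high arrays are those of BALB.

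Prf1 encodes perforin. Its brighter probe set ranged from 5.06 to 5.96 in B6 CF lungs and from 4.71 to 5.19 in controls, with overlap, and differed by 0.45 (SE 0.17, adjusted p = 0.167). Its second probe set differed by -0.06 (adjusted p = 0.83), so neither showed a change past the threshold.

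Fasl encodes the death ligand. Its brighter probe set, dim on every array (3.28 to 4.07), differed by 0.28 in B6 (SE 0.09, adjusted p = 0.0803). The second, dimmer probe set ranged from 3.40 to 4.42 in CF and from 2.92 to 3.55 in control lungs of B6 and was higher by 0.84 (SE 0.16, adjusted p = 0.00327). The 2 probe sets of Fasl disagreed on the call in B6, and both lay below the median of all probe sets.

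Among the receptors, Klrg1 encodes an inhibitory receptor of effector T cells and mature natural killer cells that binds cadherins. In B6 it read 6.16, 5.87 and 7.0 in CF females and 7.34 and 6.91 in CF males, against 5.29, 5.29 and 5.0 in control females and 4.90, 4.94 and 5.13 in control males. The groups were clear of each other by more than the whole spread of the controls. Klrg1 rose by 1.64 (SE 0.16, adjusted p = 1.12e-05), or 3.12-fold.

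Klrk1 encodes NKG2D, an activating receptor for stress-induced ligands. It read 5.17, 5.12 and 6.08 in B6 CF females and 5.73 and 5.84 in CF males, against 4.94, 5.17 and 5.09 in control females and 4.85, 4.95 and 4.69 in control males. Of the CF arrays, 3 lay above all controls, and the other 2, both female, lay among the upper controls. The difference was 0.68 (SE 0.14, adjusted p = 0.00741), and with tissue scores as covariates (means of gut, squamous epithelium and skeletal muscle markers) it was 0.58 and did not pass (adjusted p = 0.0536).

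Klrd1 encodes CD94, the partner chain of the NKG2 receptors that read nonclassical class I molecules. It read 5.78, 5.74 and 6.78 in B6 CF females and 6.89 and 6.63 in CF males, against 5.58, 5.99 and 6.04 in control females and 5.31, 5.14 and 5.64 in control males. The same CF arrays as for Klrk1 stood high. Klrd1 rose by 0.82 (SE 0.21, adjusted p = 0.0265). That call lay close to the threshold. It was lost with trend and robust eBayes (adjusted p = 0.0514), with the tissue scores as covariates (0.81, adjusted p = 0.0568) and on leaving out the third B6 CF female (adjusted p = 0.0689), the first control female (0.0524), the first CF male (0.136) or the first or second control male (0.0545 and 0.0655).

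Ncr1 encodes NKp46, the activating receptor that marks natural killer cells most narrowly among the 10. In B6 it read 4.47, 4.58 and 4.33 in CF females and 4.50 and 4.24 in CF males, against 4.50, 4.79 and 4.69 in control females and 4.29, 4.44 and 4.18 in control males. The groups lay on top of each other, and most of these arrays read below the median of all probe set means (4.59). The difference was -0.07 (SE 0.15, adjusted p = 0.877), with a 95% interval from -0.37 to 0.24.

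No overlap between CF and control arrays of B6, with CF higher, was found for 4 members (Gzmb, Gzmk, Nkg7 and Klrg1), where 1.3% of all probe sets had this property. Whole lung was measured, so more cytotoxic cells and more RNA per cell cannot be told apart here. T cell markers moved with these genes: 9 of 10 measured were higher in B6 CF lungs, with a median difference of 0.85. Their mean level was 5.83 to 6.22 on CF arrays and 4.89 to 5.45 on control arrays. Those of lowest p were Il7r, the interleukin 7 receptor (0.83, adjusted p = 8.8e-05), and Cd3e and Cd3g of the T cell receptor complex (0.72, adjusted p = 0.000253, and 1.45, adjusted p = 0.000517). The part of T cells in the result was not tested. Both CD8 markers were higher too: Cd8a by 0.67 (adjusted p = 0.00173) and Cd8b1 by 1.65 (adjusted p = 0.00161). Of 5 CD4 and regulatory T cell markers, 2 were higher (Ctla4 by 0.42 and Icos by 0.33, the latter lost without the first CF male, adjusted p = 0.132). Of 7 B cell markers, 12 gut markers, 8 squamous epithelium markers and 9 skeletal muscle markers, none passed in B6 by limma, although single B6 control arrays reached mean levels of 8.24 for the squamous and 7.21 for the muscle markers. At an unadjusted p under 0.05 these lists held 2 B cell, 0 gut, 2 squamous and 0 muscle markers. Of 4 gamma delta T cell markers 0 passed in B6 and 1 was higher in BALB (Blk, by 0.69, which is on the B cell list too), of 10 mast cell and basophil markers 1 was lower in B6 and 0 passed in BALB, and of 5 plasmacytoid dendritic cell and 5 thymocyte markers 0 passed in either strain by limma. At an unadjusted p under 0.05 there were 2 gamma delta markers in B6, 1 mast cell marker in BALB and 0 of the last 2 lists in either strain.

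In BALB lungs, 2 of the 10 genes were higher in CF than in control mice, where 2.6% of all probe sets were higher. These were Ncr1 and Klrk1. The median difference over the 10 genes was 0.44, against 0 over all probe sets, and no member was lower, where 2.33% of all probe sets were.

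Ncr1 read 5.69, 6.05 and 5.58 in BALB CF females and 5.09, 5.88 and 5.49 in CF males, against 5.37, 5.30 and 5.02 in control females and 4.33, 4.52 and 5.24 in control males. In females the lowest CF array read 5.58 and the highest control 5.37, and in males 1 CF array lay below the third control male. Ncr1 rose by 0.67 (SE 0.14, n = 6 and 6, adjusted p = 0.00679). Without the third BALB control male the difference was 0.80 (adjusted p = 0.000383).

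Klrk1 read 4.62, 4.70 and 4.39 in BALB CF females and 4.21, 4.8 and 4.89 in CF males, against 4.38, 4.21 and 4.09 in control females and 3.99, 4.0 and 4.10 in control males. In females the lowest CF array (4.39) was just above the highest control (4.38). In males the lowest CF array (4.21) was above the highest control (4.10) but lay among the control females. The share of all probe sets without overlap within a sex was not counted. The difference was 0.47 (SE 0.13, adjusted p = 0.0447). The call lay close to the threshold and was lost on leaving out any of 16 of the 23 arrays in turn, with adjusted p of 0.0518 to 0.119 and differences of 0.41 to 0.51. Those are all arrays but the B6 CF females, the first B6 control female, the third B6 control male, the third BALB CF female and the first BALB CF male.

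The granzymes and Klrg1 did not pass in BALB. Klrg1 read 5.57, 5.50 and 5.79 in CF females and 5.25, 5.42 and 5.44 in CF males, against 5.99, 5.58 and 5.52 in control females and 5.08, 5.02 and 5.75 in control males. All CF arrays lay within the range of the controls, and the difference was 0.00 (95% interval -0.32 to 0.33, adjusted p = 0.994), or 0.12 without the third control male. Gzmb ranged from 5.41 to 5.88 in CF and from 4.83 to 6.13 in control lungs and differed by 0.07 (SE 0.18, adjusted p = 0.901), or by 0.25 without that array (adjusted p = 0.434). Gzmk ranged from 3.72 to 4.15 in CF and from 3.68 to 4.06 in control lungs, near its level in B6 controls, and differed by 0.12 (SE 0.12, adjusted p = 0.685), or by 0.17 without that array.

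A further 5 members had positive differences in BALB that did not pass: Nkg7 with 0.58 (SE 0.19, adjusted p = 0.0795), Gzma with 0.49 (adjusted p = 0.281), Klrd1 with 0.49 (adjusted p = 0.168), Prf1 with 0.41 (adjusted p = 0.177) and Fasl with 0.26 (adjusted p = 0.0826). The second probe sets differed by 0.08 for Prf1 and 0.16 for Fasl (adjusted p = 0.759 and 0.66). In Gzma the third control male read 7.98, against 6.28 and 6.67 in the other control males and 7.44, 8.15 and 7.96 in CF males. In Nkg7 it read 5.55 against 4.41 and 4.6, with CF males at 5.52, 5.95 and 5.85. So in both genes that array lay with the CF males. Without it, 5 members passed in BALB: Ncr1, Nkg7 (0.76, adjusted p = 0.01), Gzma (0.74, adjusted p = 0.0295), Prf1 (0.56, adjusted p = 0.0288) and Klrd1 (0.64, adjusted p = 0.0485), while Klrk1 did not (0.49, adjusted p = 0.0544). Fasl passed only without the second BALB CF female (0.31, adjusted p = 0.0386).

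Markers of other tissue and cell types moved with the BALB comparison. T cell markers were higher in 6 of 10, with a median difference of 0.46 and mean levels of 5.46 to 6.12 on CF and 4.74 to 5.72 on control arrays, the top of the control range being the third control male. Neither CD8 marker passed by limma, also not at an unadjusted p under 0.05 (Cd8a 0.06, Cd8b1 0.36), and Cd8b1 read 5.90 on that control array against 3.76 and 3.99 in the other control males. Without that array Cd8b1 was higher in BALB CF lungs by 0.70 (adjusted p = 0.029) and Cd3e by 0.38 (adjusted p = 0.0125, and 0.29 with 0.087 when it was kept), while Cd8a differed by 0.21 (adjusted p = 0.0509). B cell markers were higher in 6 of 7, Blk among them. Of 12 gut markers 6 were lower, with mean levels of 4.12 to 5.2 on CF and 4.69 to 6.18 on control arrays. Of 8 squamous epithelium markers 2 were higher, their mean level being 6.42 to 8.16 in BALB CF females and 4.10 to 4.34 on BALB control arrays, and skeletal muscle markers (0 of 9 past the threshold by limma, 5 at an unadjusted p under 0.05) averaged 5.84 to 7.59 in the same females and 4.27 to 4.51 on BALB control arrays. With the tissue scores as covariates, 0 members passed in BALB by limma, and so did only 19 of the 45037 probe sets. None of the 18 calls given for list and T cell marker genes in BALB passed in that fit, against a loss of 2 of 19 in B6 (Tyrobp and Ikzf3). The part of these tissues in the BALB values was not tested further.

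**Figure D2:**
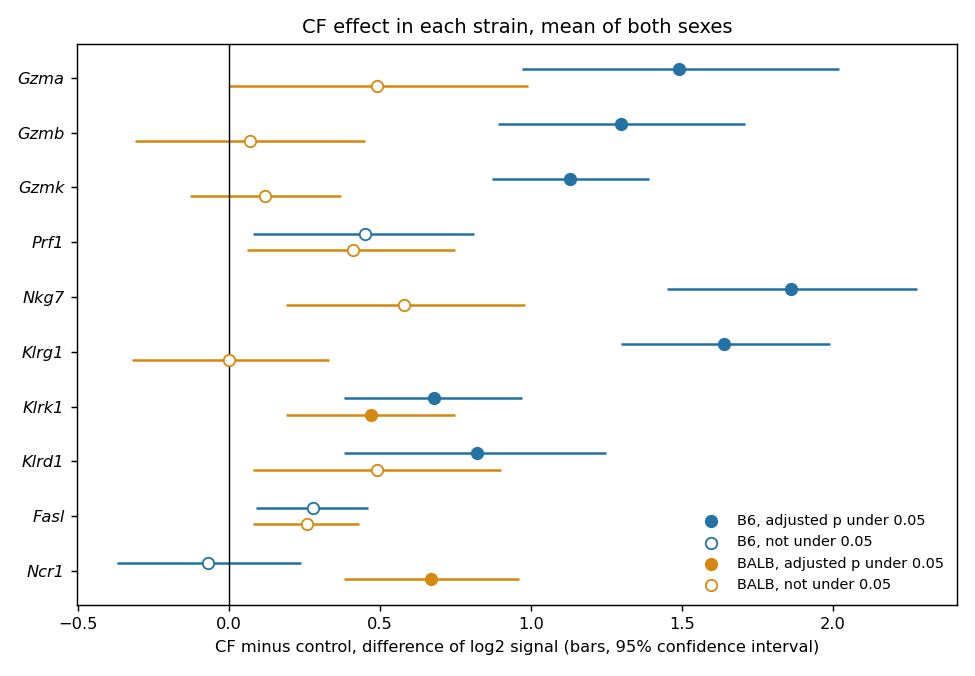
Difference of log2 signal between CF and control lungs (horizontal axis, points, with 95% confidence intervals as bars) for each of the 10 genes in B6 and BALB, averaged over both sexes. Filled points have an adjusted p under 0.05: 7 genes in B6 and 2 in BALB, with Klrk1 filled in both strains.

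The difference between the strains was itself tested, as the BALB effect minus the B6 effect. It had a negative value for 9 of the 10 genes and passed as negative for 4, where 1.2% of all probe sets did: Klrg1 (-1.64, SE 0.23, adjusted p = 0.000585), Nkg7 (-1.28, SE 0.28, adjusted p = 0.0154), Gzmb (-1.23, SE 0.27, adjusted p = 0.017) and Gzmk (-1.01, SE 0.17, adjusted p = 0.00318). In these genes the CF effect was larger in B6. Without the first B6 CF male, the differences of Nkg7 (adjusted p = 0.0589) and Gzmb (adjusted p = 0.0597) did not pass, leaving 2 genes. With the tissue scores as covariates the 4 differences were -1.78 to -1.13 and none passed (adjusted p of 0.067 to 0.331). Gzma, with a difference of -1.0, did not pass (95% interval -1.72 to -0.28, adjusted p = 0.138). For Prf1 (-0.04), Fasl (-0.02), Klrk1 (-0.20) and Klrd1 (-0.32) the test did not show a strain difference, with 95% intervals as wide as -0.92 to 0.27 for Klrd1. Without the third BALB control male the difference was 0.11 for Prf1, 0.00 for Fasl and -0.17 for Klrd1, none of which passed. The second probe set of Fasl had a strain difference of -0.68 (95% interval -1.14 to -0.23, adjusted p = 0.103) and that of Prf1 one of 0.14 (adjusted p = 0.706). Ncr1 had the only positive difference (0.74, SE 0.20, adjusted p = 0.0556), which missed the threshold. It missed it in 26 of 32 alternatives too. It passed with dim probe sets left out (adjusted p = 0.0352) and with array weights (0.81, adjusted p = 0.014). It also passed without the third BALB control male (0.87, adjusted p = 0.0082), the first BALB CF male (0.83, adjusted p = 0.0283), the third BALB CF female (0.78, adjusted p = 0.0485) or the first B6 control female (0.78, adjusted p = 0.0433).

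Between the strains' control lungs 3 of the 10 genes passed, Klrd1, Klrk1 and Ncr1, where 7016 of the 45037 probe sets did in either direction. In controls, BALB was lower than B6 for 2 of the 10 genes, where 8.12% of all probe sets were lower. It was higher for 1, where 7.46% were higher, a count near that share. Klrd1 averaged 4.32 in BALB and 5.62 in B6 controls, a difference of -1.30 (SE 0.20, adjusted p = 4.43e-05), and Klrk1 averaged 4.13 and 4.95, a difference of -0.82 (SE 0.13, adjusted p = 0.000124). With the tissue scores as covariates neither passed (-0.91, adjusted p = 0.312, for Klrd1 and -0.89, adjusted p = 0.118, for Klrk1), nor did Ncr1 (0.80, adjusted p = 0.144). In that fit 1415 of all probe sets passed in either direction, against 7016 without the scores. For Klrd1 and Klrk1 every BALB control array lay below every B6 control array, as in 4.39% of all probe sets. Ncr1 averaged 4.96 in BALB and 4.48 in B6 controls, a difference of 0.48 (SE 0.14, adjusted p = 0.0194) with overlapping arrays. The Ncr1 call was lost without the third BALB control male (0.34, adjusted p = 0.0568) or the first BALB control female (0.45, adjusted p = 0.052). Klrg1 differed by 0.40 (adjusted p = 0.0915) and passed without the third B6 CF female (adjusted p = 0.0264). No granzyme passed between controls: the differences were 0.07 for Gzma, -0.10 for Gzmb and -0.02 for Gzmk (adjusted p = 0.89, 0.794 and 0.944). They were -0.18, -0.28 and -0.08 without the third BALB control male (adjusted p = 0.647, 0.28 and 0.78), so that of Gzma turned sign.

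Between CF lungs of the strains, BALB was lower for 7 of the 10 genes, where 9.52% of all probe sets were lower, and higher for 1, Ncr1, where 8.66% were higher. Klrd1 differed by -1.62, Nkg7 by -1.41, Gzmb by -1.33, Klrg1 by -1.24, Gzmk by -1.03, Klrk1 by -1.02 and Gzma by -0.93 (adjusted p = 0.0118, 0.0754 without the first B6 CF male and 0.0976 with the tissue scores as covariates). Fasl differed by -0.11 (adjusted p = 0.465) in its brighter probe set and by -0.75 (adjusted p = 0.00172) in the second, so its probe sets disagreed on this call as well. Those of Prf1 differed by -0.03 and 0.20, and neither passed. Ncr1 averaged 5.63 in BALB and 4.42 in B6 CF lungs, a difference of 1.22 (SE 0.15, adjusted p = 2.34e-06). Ncr1 read 5.09 to 6.05 in BALB and 4.24 to 4.58 in B6 CF lungs, and Klrd1 4.43 to 5.37 and 5.74 to 6.89. The arrays did not overlap in Gzmb, Gzmk, Nkg7, Klrg1 and Klrk1 either. The share of all probe sets without overlap here was not counted. These comparisons use the same CF arrays as those within each strain and are not independent of them.

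Sex was examined within each strain. In B6 males 8 of the 10 genes were higher in CF lungs, where 3.61% of all probe sets were higher: Nkg7 by 2.65 (SE 0.30, n = 2 and 3, adjusted p = 2.63e-05), Gzma by 2.30, Klrg1 by 2.14, Gzmb by 1.88, Klrd1 by 1.4, Gzmk by 1.24, Klrk1 by 0.96 and Fasl by 0.52. The second probe set of Fasl was higher by 1.25 (adjusted p = 0.00272). With only 2 CF arrays, that of Klrd1 was lost without the first CF male (adjusted p = 0.122) and those of Klrk1 and Fasl without either CF male (0.0683 and 0.0637 for Klrk1, 0.0681 and 0.166 for Fasl). Fasl was also lost without the first or second control male (0.0598 and 0.0953), and Prf1 passed without the second CF male (1.08, adjusted p = 0.0495).

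In B6 females 2 genes were higher, where 0.406% of all probe sets were higher: Gzmk by 1.02 (SE 0.17, n = 3 and 3, adjusted p = 0.00502) and Klrg1 by 1.15 (SE 0.22, adjusted p = 0.0129). The Klrg1 call was lost without the third CF female (0.82, adjusted p = 0.0835) or the second or the third control female (adjusted p = 0.0508 and 0.0932). Nkg7 in B6 females differed by 1.08 (adjusted p = 0.0618) and missed the threshold in 29 of 33 alternatives too. It passed without the third BALB control male (adjusted p = 0.0223), which enters through the shared estimate of the spread. It also passed with dim probe sets left out (adjusted p = 0.0363), array weights (0.89, adjusted p = 0.0291) and B6 arrays only (adjusted p = 0.0317). The third B6 CF female was the highest of its group in all of Gzma, Gzmb, Gzmk, Nkg7, Klrg1, Klrk1 and Klrd1.

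The sex difference of the CF effect in B6, female minus male, had a negative value for all 10 genes, with a median of -0.77 against 0.01 over all probe sets. It passed for 1 of them, Nkg7 (-1.58, SE 0.40, adjusted p = 0.0468), where 1.07% of all probe sets were lower. That call was lost with trend and robust eBayes (adjusted p = 0.0857) and on leaving out any of 13 arrays in turn (adjusted p of 0.0508 to 0.214). These were the first and second B6 CF females, the second and the third B6 control females, all B6 males, the third BALB CF female, the second and the third BALB CF males and the second BALB control male, with the highest adjusted p without the first B6 CF male. Without the third B6 CF female, Nkg7, Klrg1 (-1.31, adjusted p = 0.0206), Gzmk (-0.56, adjusted p = 0.0441) and Klrk1 (-0.87, adjusted p = 0.0469) passed. Without the third BALB control male, Gzma also passed (-1.61, adjusted p = 0.0358).

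Control lungs of the sexes differed as well. Females were higher than males for 2 of the 10 genes, where 1.62% of all probe sets were higher. Over both strains Nkg7 averaged 5.88 in control females and 4.97 in control males and differed by 0.91 (SE 0.19, n = 6 and 6, adjusted p = 0.0125), and Gzma averaged 7.91 and 7.01, a difference of 0.90 (SE 0.24, adjusted p = 0.0486). The Gzma call was lost with quantile normalization (adjusted p = 0.0569), with trend and robust eBayes (adjusted p = 0.101) and on leaving out any of 18 arrays in turn (adjusted p of 0.0504 to 0.153), that is any but the second and the third B6 CF females, the first B6 control female, the first BALB CF male and the third BALB control male. Without the third BALB control male, Gzmb (0.65, adjusted p = 0.0287) and Ncr1 (0.58, adjusted p = 0.00985) passed too. Nkg7 was thus higher in control females and had the larger CF effect in B6 males, and these results share the control arrays.

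In BALB females no member passed by limma (2 had an unadjusted p under 0.05), where 0.577% of all probe sets were higher, and the differences ran from -0.15 (Gzmb) to 0.54 (Ncr1). In BALB males Ncr1 was higher by 0.79 (SE 0.20, adjusted p = 0.0389), 1 of 10 genes, where 1.26% of all probe sets were higher. It did not pass on leaving out any of 5 arrays in turn, the first B6 control male, the second or the third BALB CF male and the first or second BALB control male (adjusted p of 0.051 to 0.21). Klrk1 differed by 0.60 in BALB males (adjusted p = 0.123) and passed without the third B6 CF female (adjusted p = 0.022) or the first BALB CF male (adjusted p = 0.0322). Leaving out the third BALB control male, Nkg7 (1.27, adjusted p = 0.00789, against 0.92 with it), Gzma (1.37, adjusted p = 0.0136, against 0.87) and Ncr1 (1.06, adjusted p = 0.00228) passed. No sex difference of the CF effect passed for a member in BALB by limma (0 also at an unadjusted p under 0.05), where 0.0178% of all probe sets did in either direction.

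**Figure D3:**
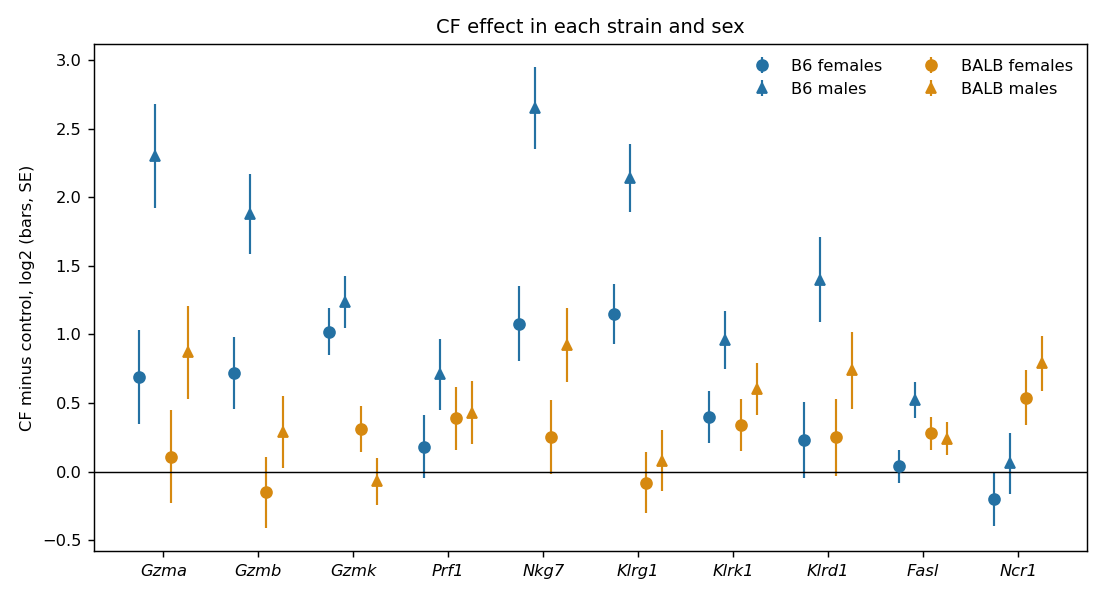
Difference of log2 signal between CF and control lungs (vertical axis, points, with the standard error as bars) for each of the 10 genes in females (circles) and males (triangles) of B6 and BALB. The B6 male points are the highest of the 4 for 9 of the 10 genes, up to 2.65 for Nkg7, and Ncr1 is the exception.

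How the genes varied together was read from the 23 arrays after each group mean was subtracted, so that differences between the groups' means play no part. The correlation of a gene with the mean of the other 9 was 0.97 for Gzma, 0.95 for Gzmb and Nkg7, 0.85 for Klrd1, 0.81 for Prf1, 0.73 for Klrg1, 0.70 for Gzmk, 0.66 for Klrk1, 0.62 for Ncr1 and 0.09 for Fasl. Ncr1 followed Prf1 (0.79), Gzma (0.74) and Nkg7 (0.73) more closely than Gzmk (0.18) or Klrg1 (0.26), and Gzmk followed Klrk1 (0.79) and Klrg1 (0.78). These are descriptions over arrays that share libraries between genes. The value of Fasl is that of its brighter probe set, dim on every array, and its second probe set was not read in this way. The arrays farthest from their group mean were the third BALB control male (0.50 above, as a mean over the 10 genes) and the third B6 CF female (0.43 above). Among 11626 other genes no dimmer than the median probe set, those most like the mean of the 10 were Ms4a6b, a membrane protein gene of T cells (r = 0.917), the chemokine gene Ccl5 (0.875), the chemokine receptor gene Ccr2 (0.866), H2-Q5 (0.855), AW112010 (0.848), Lat, the T cell adaptor (0.844), the immunoproteasome gene Psmb9 (0.829) and Trim30a (0.826). Without the 2 farthest arrays these correlations were 0.717 to 0.853.

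**Figure D4:**
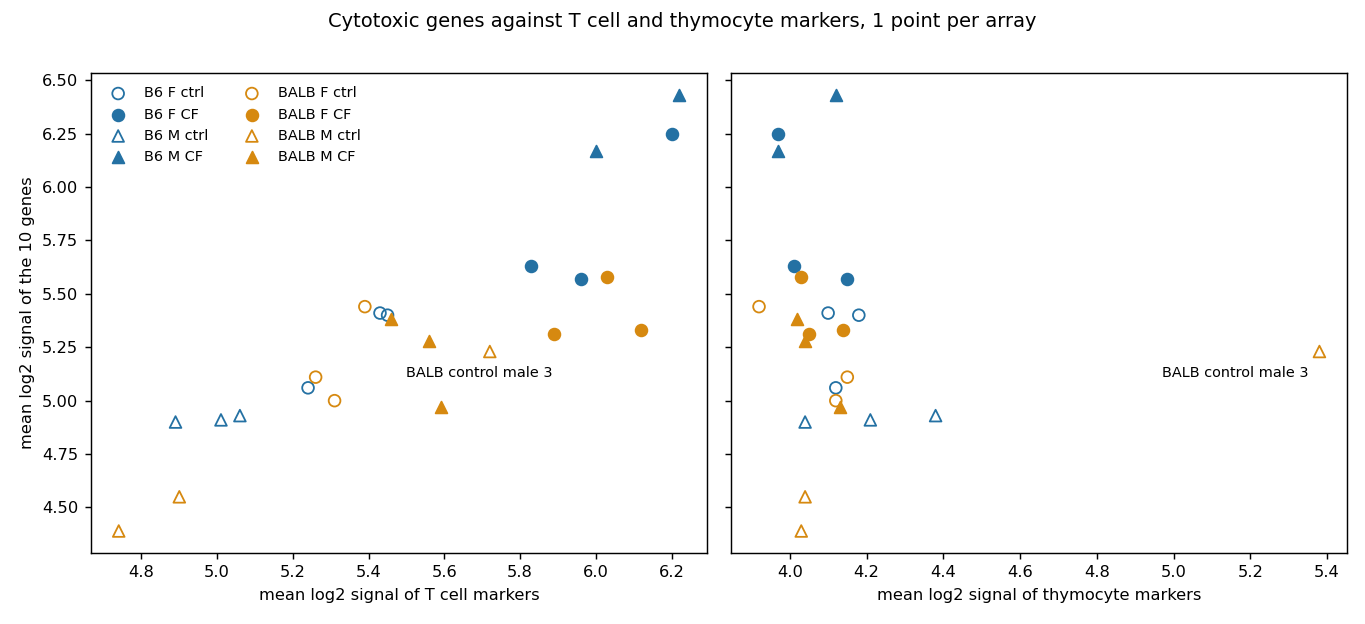
Mean log2 signal of the 10 cytotoxic genes (vertical axis) against the mean log2 signal of the T cell markers (left) and of the thymocyte markers (right), with 1 point per array, open for control and filled for CF. The third BALB control male lies at 5.38 on the thymocyte axis, apart from all other arrays, and the 3 highest cytotoxic means (6.17, 6.25 and 6.43) are of B6 CF arrays, whose lowest, 5.57, lies beside the highest BALB CF array, 5.58.

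Other genes of the lytic granule were measured for comparison, 20 of 20 on the list. Of these 1 was higher in B6 and 2 in BALB, none was lower, and their median differences were 0.01 and 0.04. Ctsw, a cathepsin of killer cells, rose by 1.08 in B6 (adjusted p = 0.000253) and differed by 0.47 in BALB (adjusted p = 0.0687), where it passed without the third control male (0.58, adjusted p = 0.0137). Srgn, which encodes the proteoglycan that packs granzymes, rose by 0.25 in BALB (adjusted p = 0.0149, and 0.0598 with BALB arrays only), and Sytl2, of granule docking, by 0.27 (adjusted p = 0.0177). The other granzymes of that list (Gzmc to Gzmg, Gzmm and Gzmn) did not pass in either strain.

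Of the other natural killer receptor genes, 22 of 31 were measured, of which 6 were higher in B6 and 2 in BALB and none was lower. Cd96, an adhesion receptor, rose by 0.59 in B6 (adjusted p = 0.00398) and Klre1, a lectin-like receptor, by 0.45 (adjusted p = 0.00428). In BALB Slamf6, a receptor that pairs with itself between lymphocytes, rose by 0.57 (adjusted p = 0.00261) and Klra17, a Ly49 family member, by 0.38 (adjusted p = 0.00428). Slamf6 and Klra17 were dim, with group means of 3.72 to 4.54 and 3.49 to 3.96, below the median of all probe set means (4.59). Group means of Klre1 were 3.87 to 4.82. The median difference was 0.20 in B6 and 0.09 in BALB.

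Adaptors that carry the receptors' signal moved in both strains, with 5 of 11 measured genes higher in B6 and 6 in BALB, median differences 0.33 and 0.34. Hcst, which encodes DAP10, the NKG2D adaptor, rose by 0.60 in B6 (adjusted p = 0.000798) and by 0.34 in BALB (adjusted p = 0.0296). The BALB call was lost with BALB arrays only (adjusted p = 0.0784) and on leaving out any of 5 arrays in turn (0.0587 to 0.0895): the third CF female, the first control female, the first CF male and the first and second control males. Tyrobp, which encodes DAP12, rose by 0.45 and 0.58 (adjusted p = 0.0182 and 0.00179), and Fcer1g, the signalling chain used by NKp46 and Fc receptors, by 0.50 and 0.52 (adjusted p = 0.00492 and 0.00252). In B6 the Tyrobp call was lost without the third CF female, the first CF male or the third control male (adjusted p of 0.0521 to 0.177), and that of Fcer1g without the first CF male (0.0646). Myeloid cells express these last adaptors too. Cd247, the zeta chain of the T cell receptor, rose by 0.50 in B6 (adjusted p = 0.00534, and 0.0591 without the first CF male) and differed by 0.13 in BALB (adjusted p = 0.533), or by 0.21 without the third control male.

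On the target side, none of the 5 measured ligands of the member receptors and none of the 4 measured granzyme inhibitors passed in either strain by limma. The ligands were Cdh1, Cdh2, Cdh4 and the dim H60c and Ulbp1 (group means of 2.68 to 3.32 and 3.32 to 3.64). Other ligands on the list, H60a, H60b, the Raet1 genes and H2-T23, were not measured. At an unadjusted p under 0.05 there were 2 ligands and 2 inhibitors in B6 and 1 of each in BALB. Their medians were -0.15 and -0.10 in B6 and -0.12 and 0 in BALB. Of 10 other effector and death receptor genes, none passed in B6 by limma (1 at an unadjusted p under 0.05), where Ifng, the interferon gamma gene, differed by 0.37 (adjusted p = 0.0578), and 3 were higher in BALB: the death ligand gene Tnfsf10 by 0.64 (adjusted p = 0.00254), Casp8 by 0.26 (adjusted p = 0.00681) and the adaptor gene Fadd by 0.21 (adjusted p = 0.0473). The Fadd call was lost with quantile normalization (adjusted p = 0.0613), median centring (0.0766), trend and robust eBayes (0.0765) and BALB arrays only (0.107), and on leaving out any of 16 of the 23 arrays in turn (0.0508 to 0.139). Those are all but the first B6 control female, the B6 CF males, the first B6 control male, the first BALB CF female, the second BALB control female and the second BALB CF male.

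Of 11 transcription factor genes of cytotoxic lymphocytes, 3 were higher in B6 and 2 in BALB. Tbx21, which encodes the T-box factor T-bet, rose by 1.01 in B6 (adjusted p = 0.00107) and differed by 0.32 in BALB (adjusted p = 0.285). Stat4, the mediator of interleukin 12 signals, rose by 0.59 in B6 and 0.38 in BALB (adjusted p = 0.00391 and 0.0435), Ikzf3 by 0.31 in B6 (adjusted p = 0.0411) and Prdm1, which encodes Blimp-1, by 0.78 in BALB (adjusted p = 0.00046). The Stat4 call in BALB was lost with median centring (adjusted p = 0.0593), with BALB arrays only (0.0689) and on leaving out any of 14 of the 23 arrays in turn (0.0501 to 0.112). Those are the second B6 control female, the B6 CF males and control males, the second BALB CF female, the first and the third BALB control females, the BALB CF males and the first and second BALB control males. That of Ikzf3 in B6 was lost on leaving out any of 8 B6 arrays (0.0513 to 0.203), all but the first CF female, the first control female and the first control male. Of 11 cytokine and cytokine receptor genes, 1 was higher in B6 and 3 in BALB. Il18rap, a chain of the interleukin 18 receptor, rose in both strains, by 0.83 (adjusted p = 4.91e-05) and 0.38 (adjusted p = 0.0185). The BALB call was lost without the third control female or the first or second control male (adjusted p of 0.0509 to 0.0586). Il12a rose by 0.48 in BALB (adjusted p = 0.00482) and Il2rb, a receptor chain for interleukins 2 and 15, by 0.34 (adjusted p = 0.0249). Il12a was dim, with group means of 3.97 to 4.57. The Il2rb call was lost with BALB arrays only (adjusted p = 0.0571) and on leaving out any of 7 BALB arrays in turn (0.0508 to 0.0728): the second and the third CF females, the first and the third control females, the second CF male and the first and second control males.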

How the data were processed

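Total RNA of whole right lung was labelled with biotin, per the labels. The deposited log2 values of 45101 probe sets on 23 arrays were used. That they are log2 signals was inferred from their spread (1.79 to 13.82) and their like distribution on every array. How the authors summarised, normalized or centred them before they were deposited is not given in the sources used here, and no scanner files were used. Array precision is limited by the number of arrays, 2 or 3 per group.

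The 64 control probe sets were left out, leaving 45037. Of these, 34945 had 1 symbol in the platform annotation, 932 several and 9160 none. All 10 member gene IDs matched the RefSeq table of GRCm38.p6. Means of the 8 groups were fitted together by lmFit and eBayes of limma 3.58.1 (R 4.3.3). There were 15 residual degrees of freedom and 5.81 prior ones. P-values were adjusted by Benjamini-Hochberg over all probe sets within each of 12 comparisons, and 0.05 was the threshold. Effects in a strain average its females and males. The fit was tested on simulated data. Of the comparisons, 5 (female minus male controls and the 4 within 1 strain and sex) got their alternatives after the data were seen, as did the strain and sex differences of list genes.

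Named were all 10 members by their brightest probe set, up to 4 genes of lowest p from each of 8 other pathway lists and 13 marker lists, and the 8 genes most like the members' mean. The members and lists were chosen with earlier results of these data known. Alternatives were quantile normalization, median centring, a filter on dim probe sets, trend and robust eBayes, array weights, a replicate block, arrays of 1 strain only, tissue scores as covariates, other probe sets of a gene and leaving out each array. Replicate numbers did not pair the arrays. The values given for Rag1, Dntt and Cd8b1 on the array that stood apart were picked after they were seen.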

Additional observations from a re-analysis of the deposited data

Results flagged for a closer look

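The CF effect differed between the strains, by a limma test of the difference itself (BALB effect minus B6 effect), for 4 of the 10 cytotoxic genes. The differences were -1.64 for Klrg1 (1.64 in B6 and 0.00 in BALB), -1.28 for Nkg7 (1.86 and 0.58), -1.23 for Gzmb (1.30 and 0.07) and -1.01 for Gzmk (1.13 and 0.12). Among the named genes of the other lists it differed for 5 more. Klre1 differed by -0.55 (0.45 in B6 and -0.10 in BALB, adjusted p = 0.0173), Cd8a by -0.61 (0.67 and 0.06, adjusted p = 0.0444) and Ctla4 by -0.42 (0.42 and 0.00, adjusted p = 0.0255). Prdm1 (0.91, with -0.13 in B6 and 0.78 in BALB, adjusted p = 0.00576) and Il12a (0.64, with -0.17 and 0.48, adjusted p = 0.0152) went the other way, with the larger effect in BALB. The Cd8a difference was lost on leaving out any of 18 arrays in turn (adjusted p of 0.0521 to 0.1), all but the first B6 control female, the second BALB CF female and the BALB control males. Without the third BALB control male it was -0.46 (adjusted p = 0.00672), with Cd8a effects of 0.67 in B6 and 0.21 in BALB. The Ctla4 difference was lost without the second B6 control female, the first B6 CF male or the third BALB CF male (adjusted p of 0.0507 to 0.0692). Group means of Ctla4 (3.82 to 4.56) and Il12a (3.97 to 4.57) lay below the median of all probe set means (4.59). With tissue scores as covariates none of these 5 passed (adjusted p of 0.219 to 0.706), nor did those of the cytotoxic genes.

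The CF effect in B6 differed between the sexes, as the female minus the male effect, for Nkg7 (-1.58, adjusted p = 0.0468), Ctsw (-1.25, adjusted p = 0.0406), Hcst (-0.82, adjusted p = 0.031) and Stat4 (-0.89, adjusted p = 0.0477). All 4 had the larger effect in males, of which only 2 CF arrays were measured. On leaving out 1 array at a time, the Ctsw difference was lost in 10 of 23 cases, that of Hcst in 6 and that of Stat4 in 14, with adjusted p up to 0.177, 0.188 and 0.172, and that of Nkg7 in 13. For Ctsw these were all B6 arrays but the third CF female and the first control female, and the third BALB CF male. For Stat4 they were the same arrays with the first BALB control female, the first and second BALB CF males and the second BALB control male. For Hcst they were the first B6 CF female, the second B6 control female, the first B6 CF male and the B6 control males.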

How the results depend on the processing

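Over the 12 comparisons and 33 alternatives, 3761 of 3900 values of the members kept their side of the threshold, 92 lost a call and 47 gained one. Values that changed sign but passed in neither fit count as kept (124 over members and list genes together). On leaving out 1 array at a time, the members passing numbered 6 to 7 for the CF effect in B6 (7 with all arrays), 1 to 5 in BALB (2), 2 to 5 for the strain difference (4), 2 to 4 and 7 to 8 between the strains' controls and CF lungs (3 and 8), 1 to 4 for the sexes in controls (2), 0 to 4 for the sex difference in B6 (1), 0 in BALB (0), 1 to 3 in B6 females (2), 5 to 8 in B6 males (8), 0 in BALB females (0) and 0 to 3 in BALB males (1). Probe sets passing then numbered 852 to 2329 for the CF effect in B6 (2121 with all arrays) and 1368 to 2851 in BALB (2217). For the strain difference they were 591 to 1568 (1142) and for the sexes in controls 477 to 1772 (1094). For the sex difference in B6 they were 245 to 1183 (788). They were 84 to 747 in B6 females (367) and 760 to 3113 in B6 males (2809). In BALB females they were 39 to 1414 (534) and in BALB males 323 to 1060 (867). The number of members passing moved by over 1.5 times as follows. With array weights it was 4 in BALB, 5 for the sexes in controls, 2 for the sex difference in B6 and 6 in BALB males. Probe sets passing rose as well, to 3824, 3666, 1488 and 2097 in that order, from 2217, 1094, 788 and 867. With tissue scores as covariates it was 0 in BALB, 0 for the strain difference, 0 between the strains' controls and 0 in BALB males, and the CF effect of Il2rb in BALB became -0.03 (adjusted p = 0.986). Probe sets passing in these 4 comparisons fell to 19, 34, 1415 and 8, from 2217, 1142, 7016 and 867. That fit spends 3 degrees of freedom on scores that differ between the BALB groups, and the cause of the loss was not tested. Median centring gave 1 in BALB, quantile normalization 1 for the sexes in controls, trend and robust eBayes 1 for the sexes in controls and 0 for the sex difference in B6, and arrays of 1 strain only 2 for the sex difference in B6 and 0 in BALB males. The cause of these moves was not tested. The replicate block left every count of members as it was (7 for B6, 2 for BALB and 4 for their difference) and moved 2 calls of list genes in BALB: Fadd was lost (0.21, adjusted p = 0.0627) and Cd96 gained (0.32, adjusted p = 0.0497). Arrays of different groups with the same replicate number deviated together at r of -0.18 to 0.35 (median 0). Those with different numbers did so at -0.29 to 0.28 (median 0). For 9 of 23 arrays, the mean correlation with arrays of other groups was highest for their own number.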

Other observations

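Of 3 measured lymph node stroma markers, 1 rose in B6: Cxcl13, a chemokine of lymphoid follicles (1.45, adjusted p = 0.00812), which differed by 0.32 in BALB (adjusted p = 0.634). It read 7.45 on the third BALB control male, against 5.56 and 5.63 on the other control males of that strain. Glycam1, a marker of lymph node vessels, read 8.51 and 9.12 on the first and the third BALB control females and 4.23 on the second.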
